A study of Mus musculus with 69 samples.

Results

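The Zscan4 genes and the Tcstv genes are 2 clustered mouse gene families whose RNA marks the 2-cell-like state. They were chosen by name, as every gene in the mRNA-seq count table whose symbol begins with Zscan4 or Tcstv, which gave 7 of the 16263 genes listed: Zscan4a, Zscan4b, Zscan4c, Zscan4d, Zscan4f, Tcstv1 and Tcstv3. Of the 7, 6 passed the filter on low counts and were tested, and Tcstv1 did not. The annotation of the mouse genome (GENCODE, build GRCm38, which is mm10) holds 11 genes with these names. The other 4, Zscan4e, Zscan4-ps1, Zscan4-ps2 and Zscan4-ps3, have no row of their own in the table.

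A few cells in a culture of mouse embryonic stem cells (ESCs) switch for a short time to a transcriptional program like that of the embryo after its first division. Zscan4 proteins, which carry a SCAN domain and zinc fingers and are known for their role in telomere maintenance, are made in this state, together with a set of genes that the transcription factor Dux can switch on. Because only a small fraction of cells is in the state at any time, the level of these genes in bulk RNA reflects both how many cells express them and how much each of them makes. Fewer such cells and less RNA per cell cannot be told apart in the data below.

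The study compared wild-type (WT) J1 ESCs, a line from the inner cell mass of a 129S4/SvJae blastocyst, with the clones Mut18 and Mut43, in which CRISPR-Cas9 editing of H3f3a and H3f3b changed lysine 27 of the histone variant H3.3 to arginine (H3.3K27R), a residue that cannot be acetylated. Each mutant line is 1 clone and WT is 1 line, so an effect of the edit cannot be told apart from other differences between the lines. All lines were grown on feeder cells and kept without feeders for the last passages before harvest. Gene expression was measured by mRNA-seq and open chromatin by ATAC-seq, each in 2 libraries of every line, described as biological replicates. Library totals lay between 14992756 and 15143998 counts, and 14061 genes were tested. Counts cannot show the edited residue, so they do not check the genotype. The ESC markers were abundant in all libraries, and 8 of the 10 rose and 2 fell in the mutants, none by more than 2-fold. Fibroblast markers, which feeder cells express, were also present: their summed normalized counts were 4312 and 3083 in WT and 1991 to 2646 in the mutants, and 8 of the 9 tested fell, 5 of them by more than 2-fold. Lum was at 0 counts in 3 of the 6 libraries. Of 5 tested primitive endoderm markers, 1 fell and 1 rose. Among all tested genes, 24.5% fell and 23.5% rose at an adjusted p under 0.05, and 5.65% fell by more than 2-fold. The part of feeder RNA in the results below was not tested.

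The 5 Zscan4 genes of the table lie within 1 cluster on chromosome 7, together with the 4 family members that have no row. The cluster spans chr7:10794242-11614112. Zscan4c at chr7:11005745-11010547 and Zscan4f at chr7:11397915-11402318 are on the plus strand. Zscan4b at chr7:10900740-10905050, Zscan4d at chr7:11161374-11166159 and Zscan4a at chr7:10794242-10799057 are on the minus strand. Zscan4a is annotated as an unprocessed pseudogene and the other 4 as protein-coding. Tcstv1 at chr13:119893388-119894785 on the minus strand and Tcstv3 at chr13:120316878-120318178 on the plus strand are both protein-coding.

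The Zscan4 genes are near copies of each other, which limits how far their reads can be told apart. The coding sequences of Zscan4c and Zscan4f, 1518 bases each, differed at 6 positions (99.6% identical), and the other pairs were 96.4 to 97.7% identical. The stretches below, from coding bases 1032 to 1091, are shown because they hold the most differences between Zscan4c and Zscan4f in any 60 bases. Capitals mark bases that differ from Zscan4c.
Zscan4c: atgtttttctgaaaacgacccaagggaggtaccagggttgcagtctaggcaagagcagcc
Zscan4f: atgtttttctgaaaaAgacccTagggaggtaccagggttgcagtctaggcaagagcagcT
Zscan4b: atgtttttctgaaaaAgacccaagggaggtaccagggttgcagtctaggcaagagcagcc
Zscan4d: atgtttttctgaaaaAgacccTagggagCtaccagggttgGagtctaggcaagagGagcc
The stretch lies at chr7:11009507-11009566 in Zscan4c, chr7:11401700-11401759 in Zscan4f, chr7:10901224-10901283 in Zscan4b and chr7:11162351-11162410 in Zscan4d. The Zscan4c and Zscan4d stretches occur once on chromosome 7, the Zscan4b stretch at 2 places and the Zscan4f stretch at 3. Of all 150-base windows of the annotated transcripts, the length of 1 read of a pair, 77.4% of those of Zscan4f, 66.4% of Zscan4b, 61.0% of Zscan4c and 25.1% of Zscan4a also lie in the transcript of another gene, while 87.0% of those of Zscan4d do not. For Zscan4b the sharing was mainly with Zscan4e, at 65.9% of its windows, and for Zscan4f with Zscan4-ps2, at 62.0%, and Zscan4c, at 51.0%. Reads from these genes without a row may therefore be held in the rows of the others or may have been dropped. The Tcstv1 and Tcstv3 coding sequences were 93.6% identical, and no window of 150 bases of either lay in another transcript.

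The starts of the Zscan4 genes are alike as well. RefSeq promoter windows (GRCm38.p6, 250 bases before to 50 after the start) were given for Zscan4b, Zscan4c, Zscan4d and Zscan4f, and pairs of them were 95.3 to 99.3% identical over 266 to 300 aligned bases. The bases before the start are printed for 3 of the 4, in the direction of the gene, with a TATAAA and a TGATTCAA in capitals, because all tested Zscan4 genes moved together. TGATTCAA is a form of the first 8 letters of the consensus motif known for Dux, and it was picked after the promoters had been read.
Zscan4f: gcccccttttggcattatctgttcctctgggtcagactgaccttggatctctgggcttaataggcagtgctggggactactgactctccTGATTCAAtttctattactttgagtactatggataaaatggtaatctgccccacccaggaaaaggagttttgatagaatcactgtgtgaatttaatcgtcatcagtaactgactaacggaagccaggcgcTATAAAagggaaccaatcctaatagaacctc
Zscan4d: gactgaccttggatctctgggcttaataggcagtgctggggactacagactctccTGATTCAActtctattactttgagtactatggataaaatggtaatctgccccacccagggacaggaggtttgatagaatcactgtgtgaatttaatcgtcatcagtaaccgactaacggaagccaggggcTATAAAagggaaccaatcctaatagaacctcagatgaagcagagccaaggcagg
Zscan4b: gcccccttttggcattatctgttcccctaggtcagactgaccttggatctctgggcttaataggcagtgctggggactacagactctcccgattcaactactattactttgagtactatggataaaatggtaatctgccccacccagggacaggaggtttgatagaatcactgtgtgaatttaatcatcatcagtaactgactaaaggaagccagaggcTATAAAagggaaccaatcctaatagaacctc
These lie at chr7:11397665-11397914 on the plus strand for Zscan4f, and on the minus strand at chr7:11166160-11166398 for Zscan4d and chr7:10905051-10905300 for Zscan4b. On both strands, TATAAA was found in 4 of the 4 Zscan4 windows and in 13.6% of the 32851 promoter windows of the genome. In Zscan4b and Zscan4f it began 31 bases before the RefSeq start, in Zscan4c 54 bases and in Zscan4d 65 bases before it. TGATTCAA was found in Zscan4c, Zscan4d and Zscan4f and in 0.581% of all windows, with no match in Zscan4b, and the full Dux consensus was found in none of the 4 and in 0.0335% of all. The 4 Zscan4 windows are near copies of each other, so their matches are not separate events. Of 15 promoter windows of other genes of the 2-cell-like state, listed below, TGATTCAA was found in 1, AF067061, and the full Dux consensus in 0.

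All 5 Zscan4 genes fell in the mutants, by 5.68- to 7.12-fold, and they fell in both clones. Zscan4f, the most abundant per length in WT, was counted 731 and 813 times in the WT libraries, against 111 and 117 times in those of Mut18 and 116 and 85 times in those of Mut43. Every mutant library was far below both WT libraries. After scaling to a common library size, the level was 755 ± 58.8 normalized counts (SD, n = 2) in WT and 108 ± 15.2 (n = 4) in the mutants, a log2 fold change of −2.80 ± 0.09 (SE), or 6.96-fold lower (edgeR quasi-likelihood F-test with Benjamini-Hochberg adjustment over 14061 genes, adjusted p = 5.77e-15).

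Zscan4c, the family member typical of ESCs, was counted 600 and 625 times in WT, with 102 and 97 counts in the Mut18 libraries and 103 and 71 in those of Mut43. The groups did not overlap. Normalized counts went from 599 ± 18.9 to 94.3 ± 15.1, a log2 fold change of −2.67 ± 0.10 (adjusted p = 2.61e-14 by edgeR).

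Zscan4d, the member known from the 2-cell embryo itself, had 200 counts in each WT library, 31 and 38 in the Mut18 pair and 26 and 32 in the Mut43 pair. It shares the fewest windows with other genes, and it fell as the rest of the family did, with a log2 fold change of −2.60 ± 0.15 (adjusted p = 2.08e-11 by edgeR). Zscan4b was counted 254 and 200 times in WT, against 34 and 35 times in Mut18 and 31 and 23 times in Mut43. Relative to their mean, the WT replicates of Zscan4b were further apart than those of the other 4, and it had the largest log2 fold change of the 5, −2.83 ± 0.16 (adjusted p = 1.37e-11). The pseudogene Zscan4a had 284 and 269 counts in WT cells, 49 and 56 in Mut18 cells and 46 and 37 in Mut43 cells, and its log2 fold change was the smallest of the 5 at −2.51 ± 0.13 (adjusted p = 4.54e-12). The 5 intervals (95%) ran from −3.16 at the lowest bound to −2.24 at the highest.

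**Figure D1:**
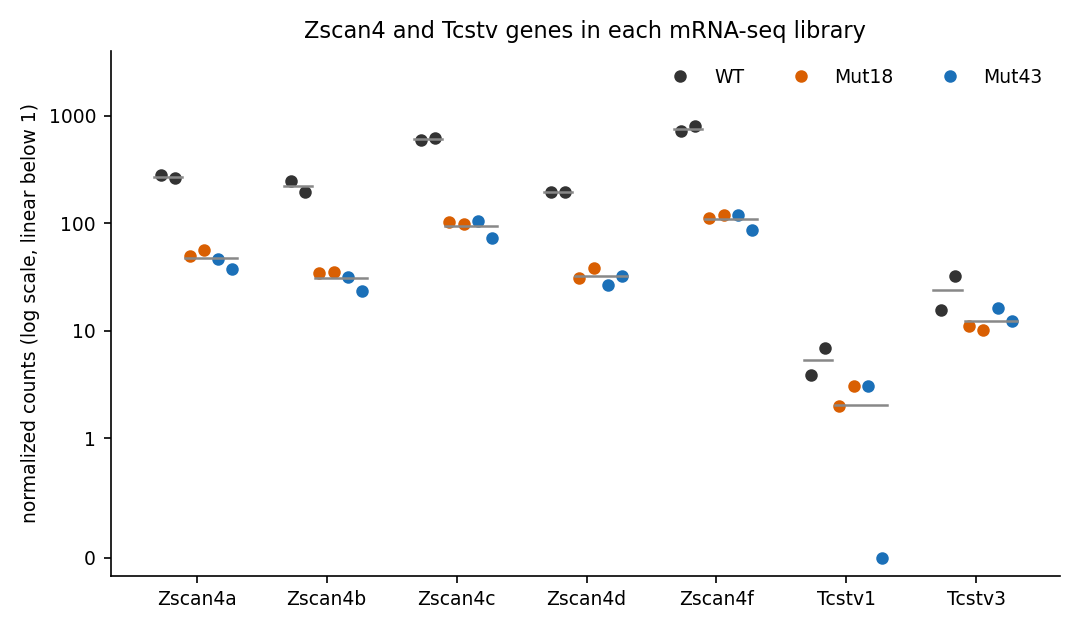
Normalized counts of the 7 Zscan4 and Tcstv genes in each of the 6 mRNA-seq libraries, 1 point per library, on a log axis that is linear below 1. Grey lines are group means (WT, n = 2; mutants, n = 4). For the 5 Zscan4 genes all mutant points lie well below both WT points, while Tcstv3 overlaps between the groups.

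Of the 6 tested members, 5 were lower by more than 2-fold at an adjusted p under 0.05, the rule by which genes are called changed here, against 5.65% of all tested genes. All 6 passed an adjusted p of 0.05 in that direction, as did 24.5% of all tested genes. Among all 14061 genes ordered from the lowest log2 fold change, Zscan4b stood at 27, Zscan4f at 29, Zscan4c at 40, Zscan4d at 45 and Zscan4a at 50. The median log2 fold change was −2.63 over the 6 tested members and −0.00407 over all tested genes.

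Each gene's share of the family's counts stayed within a few percentage points across the 6 libraries. Summed over the 5 rows, which does not depend on how reads were divided among these rows, the WT libraries held 2069 and 2107 counts, the Mut18 libraries 327 and 343, and the Mut43 libraries 322 and 248. The normalized sums were 2043 ± 31.8 in WT and 313 ± 42.2 in the mutants, 6.52 times higher in WT. Zscan4f made up 33.9 to 38.6% of the family's counts in the 6 libraries, Zscan4c 28.3 to 32.0%, Zscan4a 12.8 to 16.3%, Zscan4b 9.27 to 12.3% and Zscan4d 8.07 to 12.9%.

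On a scale per kb of annotated exon, the order of the levels in WT was Zscan4f, Zscan4c, Zscan4b, Zscan4a, Zscan4d, Tcstv3 and Tcstv1. Zscan4f was at 364 and 407 normalized counts per kb in the WT libraries and Zscan4c at 257 and 269, without overlap. Zscan4b at 138 and 109 and Zscan4a at 121.7 and 115.7 overlapped. Zscan4d at 85.9 and 86.3 lay below both and above Tcstv3 at 20.1 and 41.5. In the mutants Zscan4f was at 44.0 to 60.4, Zscan4c at 31.7 to 46.1 and the other Zscan4 genes at 11.6 to 24.9, so that even the most abundant member was below the lowest WT level among the Zscan4 genes. Levels per kb rest on the annotated length and on the shared reads described above.

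Both clones showed the drop. Compared with WT in the fit of the 3 lines, the Zscan4 log2 fold changes ranged from −2.72 for Zscan4f to −2.35 for Zscan4a in Mut18 and from −3.01 for Zscan4b to −2.68 for Zscan4a in Mut43, where 4.74% and 6.81% of all tested genes were called lower. The clone comparisons share the WT libraries. The 5 genes were between 0.17 and 0.34 (log2) higher in Mut18 than in Mut43, none past the test (adjusted p = 0.719 to 0.871 and unadjusted p = 0.124 to 0.357 by edgeR), and the intervals of the 5 differences ran from −0.25 to 0.85. For Zscan4c and Zscan4f this difference rested on the second Mut43 library and was −0.066 and −0.041 without it. Between the clones, 46 of all tested genes (0.327%) passed an adjusted p of 0.05 and 1198 (8.52%) an unadjusted p of 0.05.

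The Tcstv genes, small genes first found among transcripts of the 2-cell embryo, were near the limit of detection and their result was not firm. Tcstv3 was counted 16 and 33 times in WT, against 11 and 10 times in Mut18 and 16 and 12 times in Mut43. The first WT library lay within the range of the mutants and the second stood above it. The normalized level was 24.0 ± 11.8 (n = 2) in WT and 12.4 ± 2.72 (n = 4) in the mutants, a log2 fold change of −0.95 ± 0.34 that passed the test (adjusted p = 0.0253 by edgeR) but not the 2-fold limit. Without the second WT library it was −0.32 (adjusted p = 0.613), and with DESeq2 the adjusted p was 0.102. The drop in Mut18 alone was −1.17 ± 0.40 (adjusted p = 0.0219) and in Mut43 alone −0.75 ± 0.38 (adjusted p = 0.112), and the difference between the clones was not past the test (adjusted p = 0.871). Tcstv1 was seen 4 and 7 times in WT, against 2 and 3 times in Mut18 and 3 and 0 times in Mut43. All mutant libraries were below both WT libraries, as for 28.6% of all rows of the table, and in a fit without the filter its log2 fold change was −1.35 ± 0.72 (adjusted p = 0.142 by edgeR).

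Other genes of the 2-cell-like state were read from a list of 45, of which 33 had a row in the table and 20 were tested. The list covers genes that Dux can switch on and genes found in 2-cell-like cells, and it was drawn up with earlier results of these data known. Of the 20, 15 fell, against 24.5% of all tested genes, and 14 fell by more than 2-fold, against 5.65%. The 2 that rose did so by more than 2-fold, as did 3.28% of all tested genes, and 3 did not pass the test. The filter was reached by 7 of the 20 only through their WT counts: Usp17la, Usp17lb, Usp17ld, Usp17le, Zfp352, Pramef25 and Gm20767. Chit1, which rose, reached it only through its mutant counts. The calls of these genes with the filter are therefore no separate evidence of a change, and the 33 rows were also fitted without a filter. There 17 were lower by more than 2-fold, against 6.33% of all genes in that fit, and 2 rose. The mutant mean was below the WT mean in 29 of the 33 rows, against 51.4% of all rows of the table.

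Tested genes of several related groups were among those that fell. Gm2022, a gene of the Eif1a-like group on chromosome 12, had 131 and 113 counts in WT and 17 to 27 in the mutants, a log2 fold change of −2.43 ± 0.18 (adjusted p = 1.26e-09 by edgeR). Its relatives Gm2016 (−2.12 ± 0.10), Gm5662 (−2.17 ± 0.12) and Gm8300 (−1.89 ± 0.20) on the same chromosome fell too, while Gm21319 of that group was not tested and its groups overlapped (16 and 6 counts in WT, 2 to 7 in the mutants). Reads may be shared among these near copies as well, which was not measured. Members of the Pramef group on chromosome 4, Gm12794 with a log2 fold change of −2.41 ± 0.25 and Pramef25 with −2.14 ± 0.38, also fell. Pramef25 reached the filter only through its WT counts, and without the filter it was at −2.13 ± 0.39 (adjusted p = 0.000167 by edgeR). The other 4 Pramef-like genes of the list, Gm13078, Pramef6, B020004J07Rik and BC080695, had at most 7 counts in any library and were not tested.

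Usp17la, which encodes a ubiquitin protease of a group of tandem copies on chromosome 7, had 26 and 18 counts in WT and 2 to 7 in the mutants (log2 fold change −2.38 ± 0.43, adjusted p = 0.000118 by edgeR). The other 4 Usp17l genes of the list fell by 1.02 to 1.77, of which Usp17lb lost its call in DESeq2 (adjusted p = 0.116) and Usp17lb and Usp17lc lost theirs without the second WT library (adjusted p = 0.178 and 0.0562 by edgeR). The zinc finger gene Zfp352, a frequently used marker of the state, had 12 and 14 counts in WT and 3 to 6 in the mutants (−1.54 ± 0.45, adjusted p = 0.0076), and it did not pass in DESeq2 (adjusted p = 0.0611) nor without the second WT library (adjusted p = 0.0681). Dux itself was too low to be tested, counted 6 and 8 times in WT, against 1 and 3 times in Mut18 and 0 and 1 times in Mut43. In the fit without a filter, Dux had a log2 fold change of −2.32 ± 0.72 (adjusted p = 0.0142). Usp17la, Usp17lb, Usp17ld, Usp17le and Zfp352 reached the filter only through their WT counts. Without the filter, their log2 fold changes ran from −2.37 to −1.06 (adjusted p = 0.000218 to 0.0282 by edgeR). Usp17lb, Usp17lc, Usp17ld, Usp17le, Zfp352 and Dux fall outside the rule for named genes and were chosen after their values had been seen.

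Not every gene of the list fell. Calcoco2, which encodes an autophagy receptor, had 474 and 499 counts in WT and 1291 to 1533 in the mutants, a rise of 1.53 ± 0.07 on the log2 scale (adjusted p = 1.23e-12 by edgeR). It lies on chromosome 11, whose 935 genes with 50 or more normalized counts on average had a median log2 fold change of 0.39, against −0.0123 on the other autosomes. Chit1, a chitinase gene, rose from 1 and 4 counts to between 11 and 18 (2.42 ± 0.55, adjusted p = 0.00116). It reached the filter only through its mutant counts, and without the filter it was at 2.43 ± 0.55 (adjusted p = 0.00146 by edgeR). Tmem92, Trim43a and Trim43b, the 3 that did not pass with all libraries, had log2 fold changes of −0.58, 0.68 and 0.57 and were also named after their values were seen. Tmem92 lies on chromosome 11 as well.

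**Figure D2:**
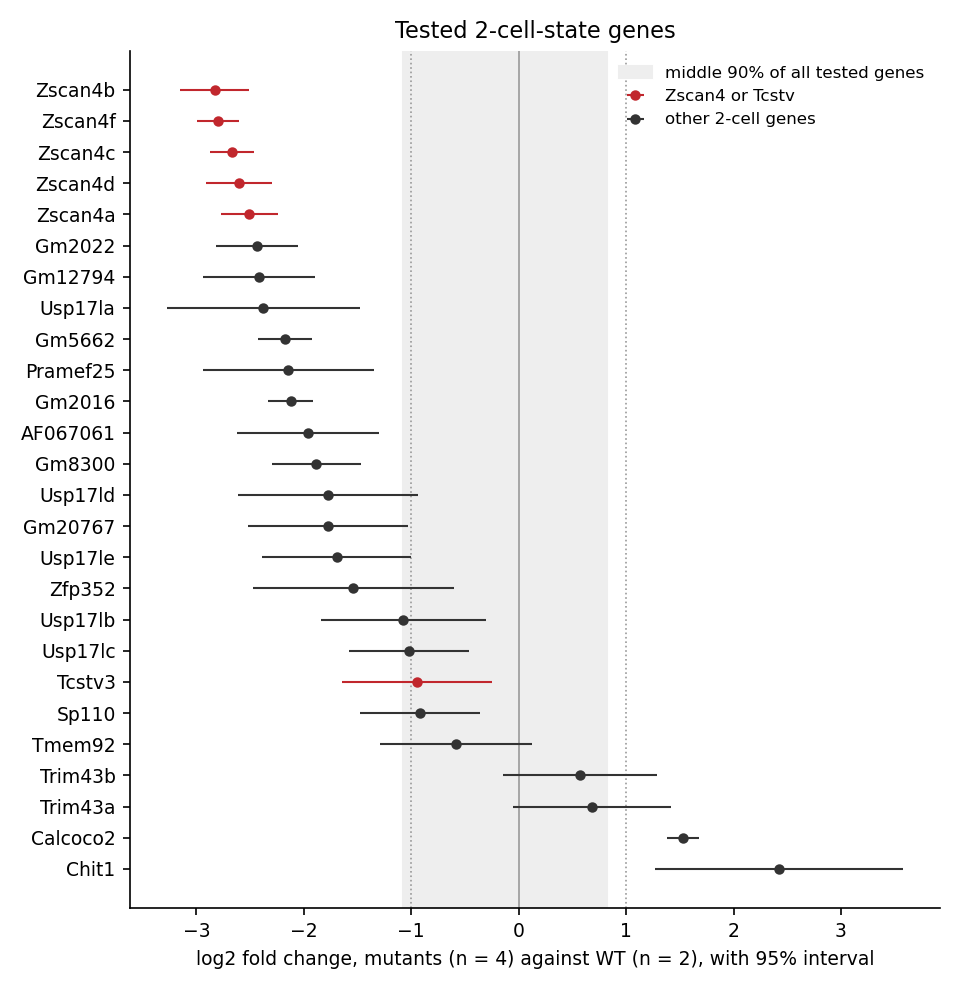
Log2 fold change between mutants (n = 4) and WT (n = 2) with its 95% interval for the 6 tested Zscan4 and Tcstv genes (red) and the 20 tested genes of the 2-cell list (black). The grey band holds the middle 90% of all 14061 tested genes and dotted lines mark 2-fold. The 5 Zscan4 genes lie at the far left, and Calcoco2 and Chit1 are the 2 genes past 2-fold on the right.

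Genes known to switch the 2-cell-like state on or to hold it down were read from lists of their own. Dux was not among these activators, as it was in the 2-cell list and too low to be tested. None of the listed genes was called by the 2-fold rule in the fit of all 4 mutant libraries. Among 7 activators, 1 fell and 4 rose, with a median log2 fold change of 0.20. Dppa2, a DNA-binding protein that switches on Dux, had a log2 fold change of 0.20 ± 0.04 (adjusted p = 0.000772 by edgeR). The 2 activators of highest count, Top2a (topoisomerase) at 0.55 ± 0.04 and Trp53 (the p53 gene) at 0.26 ± 0.04, lie on chromosome 11 with Calcoco2. Tbx3, a T-box factor of ESCs named after its value was seen, was counted 383 and 371 times in WT, against 621 and 646 times in Mut18 and 804 and 832 times in Mut43, and rose by 0.99 ± 0.10 on the log2 scale. It rose by 0.79 ± 0.08 in Mut18 and by 1.17 ± 0.07 in Mut43, where it was past the 2-fold limit (adjusted p = 1.25e-12 by edgeR).

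Among 29 repressors, 4 fell and 10 rose, and none passed 2-fold. Trim28, the co-repressor of endogenous retroviruses, had a log2 fold change of 0.15 ± 0.04, Sumo2 (the SUMO modifier, on chromosome 11) 0.25 ± 0.04, and Ncl (nucleolin) −0.07 ± 0.03. Of these, Trim28 and Sumo2 passed the test and Ncl did not (adjusted p = 0.124 by edgeR). The call for Trim28 was lost without the first WT library (adjusted p = 0.103). The largest values in the list were −0.52 for E2f6, a repressor of germline genes, and 0.72 for Zfp42, an ESC gene. Of 20 tested telomere genes, 4 fell and 6 rose, again none past 2-fold. Nhp2 (a telomerase RNA-binding subunit, on chromosome 11) had a log2 fold change of 0.39 ± 0.04, Atrx, a chromatin remodeller, 0.19 ± 0.05, and Dkc1 (dyskerin), which did not pass, 0.05 ± 0.04. Beside these counts, 48.0% of all tested genes passed an adjusted p of 0.05, 24.5% lower and 23.5% higher. E2f6 and Zfp42 were named after their values were seen.

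**Figure D3:**
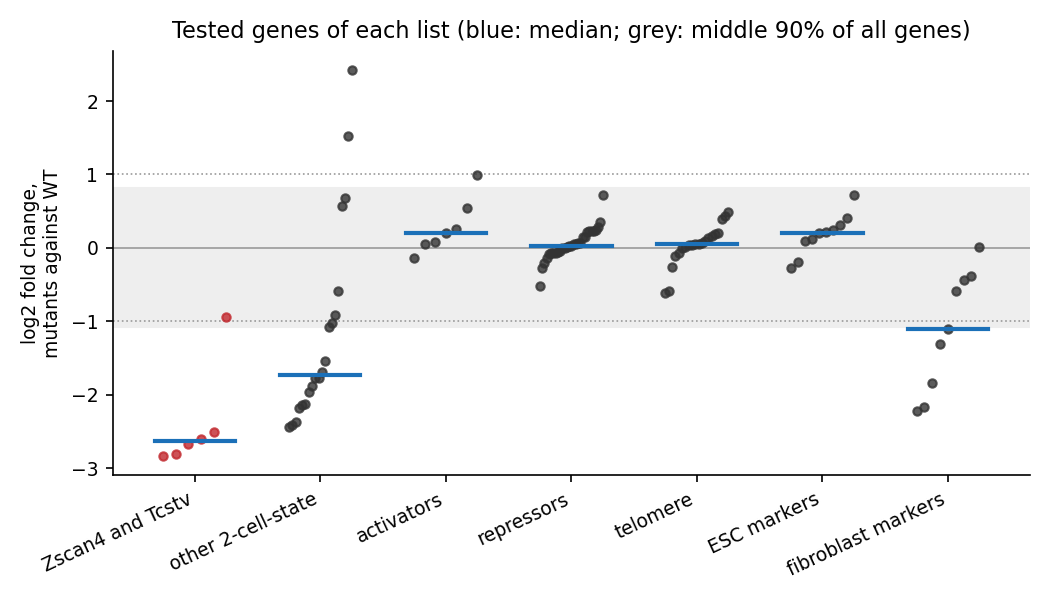
Log2 fold change between mutants and WT of every tested gene in each list, 1 point per gene, with the median in blue. The grey band holds the middle 90% of all tested genes and dotted lines mark 2-fold. The Zscan4 and Tcstv genes and the other 2-cell genes have medians of −2.63 and −1.73, the activators, repressors and telomere genes have medians of 0.20, 0.03 and 0.06, with Tbx3 highest among the activators at 0.99, and the fibroblast markers have a median of −1.11.

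The summed fibroblast markers were at 4312 normalized counts in the first WT library and 3083 in the second. Without the first WT library, which held more of these markers, the 5 Zscan4 genes had log2 fold changes from −2.87 to −2.47. The remaining WT library still held more of these markers than any mutant library, and the part of feeder RNA in the Zscan4 values was not tested.

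Near the members, the genes called lower by more than 2-fold were 2 that belong to the 2-cell list. Zik1, a zinc finger gene 298848 bp from the nearest Zscan4 gene and the only other tested gene within 500 kb of a Zscan4 row, had a log2 fold change of −0.30 ± 0.08 (adjusted p = 0.00377 by edgeR), a call lost without the second WT library (adjusted p = 0.0678). Around the Tcstv genes 9 tested genes lay within 500 kb. Of these, AF067061 (−1.96 ± 0.32) and Gm20767 (−1.77 ± 0.36), both in the 2-cell list and both between Tcstv1 and Tcstv3, were called lower. Gm20767 reached the filter only through its WT counts. Paip1 (a translation factor partner) at −0.40 ± 0.05 and Nnt (a mitochondrial transhydrogenase) at −0.36 ± 0.07 fell by less than 2-fold, and Gm7120 at 0.30 ± 0.11 rose, a call lost in DESeq2 (adjusted p = 0.117), without either WT library and without either Mut18 library. Hmgcs1, Zfp131, 4833420G17Rik and Nim1k did not pass, with log2 fold changes from −0.28 to 0.09. Of the 9, 5 passed an adjusted p of 0.05 and 2 were called lower, against 48.0% and 5.65% of all tested genes.

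The profile of the summed Zscan4 counts over the 6 libraries was compared with that of each of 11071 tested genes that averaged 50 or more normalized counts, by the root mean square difference of centred log2 values. Fgf5, a growth factor gene and marker of primed pluripotency, was nearest at 0.163, against a median of 1.29 over all genes. It was counted 286 and 298 times in WT, against 51 and 52 times in Mut18 and 41 and 45 times in Mut43. Next came Cyp2b23 (0.201), Jph1, a junctophilin (0.211), Clca4a (0.216) and Enpp2, which encodes autotaxin (0.221). For the summed Tcstv counts the nearest were Prr19 (0.255), Osbpl5 (0.269), A930024E05Rik (0.270), Hapln4 (0.277) and Mapk8ip2 (0.282), against a median of 0.562. With 6 libraries in 3 lines, these values describe a shared step between WT and mutants and little else.

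No ATAC-seq peak lay within 1000 bp of an annotated start of any of the 7 genes in any of the 6 libraries, WT included. In the same libraries, 90.6% to 94.0% of the 13962 tested genes with an annotated start had a peak within that distance (94.0% and 92.4% in WT, 90.6% and 91.9% in Mut18, 91.6% and 90.7% in Mut43). The nearest peak was about 13 kb from the start of Zscan4c (13.065 to 13.103 kb) and Zscan4f (13.012 to 13.055 kb), 25.2 to 25.6 kb from Zscan4b, 17.7 to 121 kb from Zscan4a, 7.83 to 174 kb from Zscan4d, 12.965 to 58.937 kb from Tcstv1, and 2.36 to 2.92 kb from Tcstv3. Within 1000 bp of the starts, 43.2 to 83.9% of the 50-base windows at the Zscan4 genes, and 51.6% and 52.3% at Tcstv1 and Tcstv3, occurred more than once on their own chromosome. How reads that match several places were treated is not given in the sources used here, and the part of this in the absence of peaks was not tested.

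Peaks before Zscan4c and Zscan4f lay in a repeated element of the cluster. The region at chr7:10992028-10992680, with its summit 13.2 kb before the start of Zscan4c, held a peak in all 6 libraries, with fold enrichments over background of 9.95 and 9.39 in WT and 9.41 to 11.9 in the mutants. The region at chr7:11384228-11384903, also 13.2 kb before the start of Zscan4f, held one in all 6, at 10.3 and 12.0 in WT and 10.2 to 11.7 in the mutants. Another region, at chr7:11501058-11501265 and 13.1 kb before Zscan4-ps2, held a peak in both WT libraries (5.74 and 8.18) and in none of the 4 mutants. The 201 bases around the peak summit of Zscan4c and the copies before Zscan4f and Zscan4-ps2 are printed because they show how alike the 3 elements are. Capitals mark bases that differ from the copy before Zscan4c.
Zscan4c: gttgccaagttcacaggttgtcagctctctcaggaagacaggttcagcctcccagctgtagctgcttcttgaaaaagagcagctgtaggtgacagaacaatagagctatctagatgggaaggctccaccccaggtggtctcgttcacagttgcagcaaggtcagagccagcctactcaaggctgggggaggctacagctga
Zscan4f: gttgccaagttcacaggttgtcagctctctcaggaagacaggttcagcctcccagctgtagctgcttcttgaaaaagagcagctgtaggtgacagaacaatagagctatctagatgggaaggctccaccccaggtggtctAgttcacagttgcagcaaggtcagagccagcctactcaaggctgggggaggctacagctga
Zscan4-ps2: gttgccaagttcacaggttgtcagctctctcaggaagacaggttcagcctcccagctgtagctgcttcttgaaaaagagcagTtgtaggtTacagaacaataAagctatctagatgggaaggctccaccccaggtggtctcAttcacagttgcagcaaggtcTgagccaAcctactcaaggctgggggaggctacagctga
The copies lie on the plus strand at chr7:10992432-10992632, chr7:11384640-11384840 and chr7:11501050-11501250, and the latter 2 were 99.5% and 97.0% identical to the first. Of their 50-base windows, 67.1% before Zscan4c and before Zscan4f and 21.7% before Zscan4-ps2 occurred more than once on chromosome 7, so signal may be shared between the first 2. Chromosome 7 held 8 stretches at least 90% identical over at least 150 bases. Of these, 3 carried a peak in all 6 libraries and 3 in none. Besides the copies before Zscan4c and Zscan4f, the third with a peak in all 6, at chr7:6999018-6999214, lies outside the cluster.

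**Figure D4:**
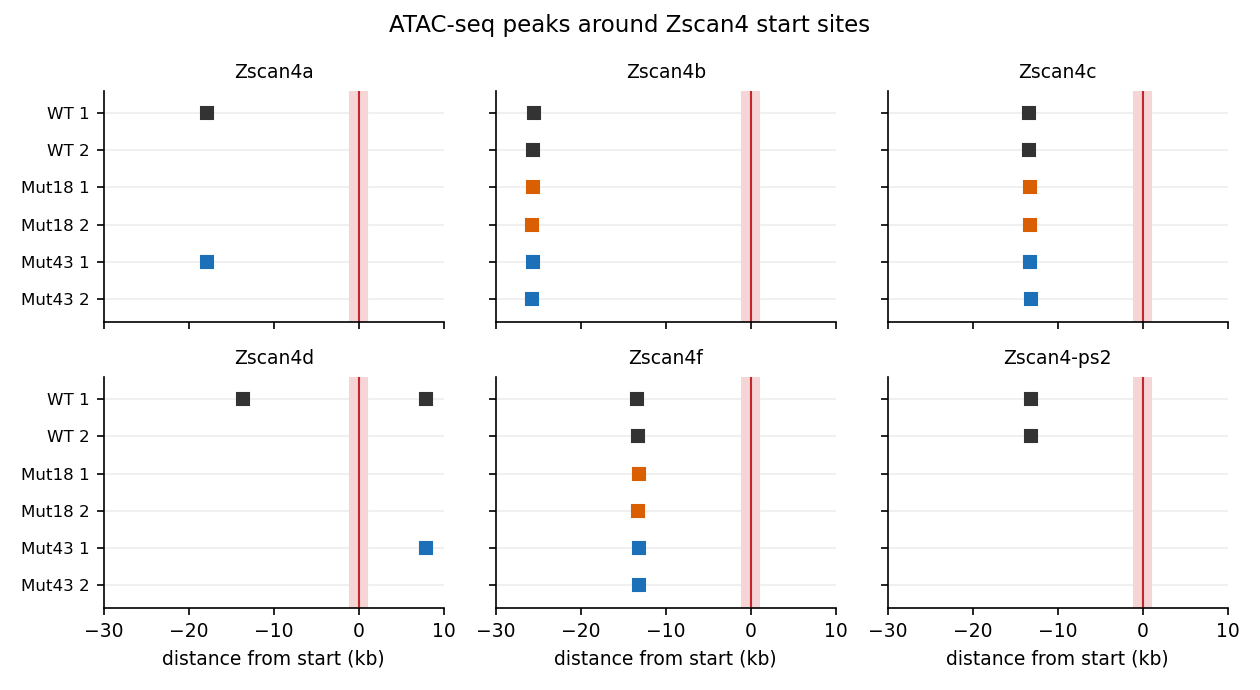
ATAC-seq peaks around the starts of the 5 Zscan4 genes and Zscan4-ps2, with the distance from the start in kb on the x axis (negative before the start) and 1 row per library. Each square is the centre of a called peak, and the red band marks 1000 bp on either side of the start. Peaks 13 kb before Zscan4c and Zscan4f appear in all 6 libraries, the one before Zscan4-ps2 in the 2 WT libraries, and none fall in the band.

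Across the whole Zscan4 cluster, 819.871 kb long, the peaks of the 6 libraries merged into 11 regions. Of these, 4 were present in all 6 libraries, 1 (before Zscan4-ps2) in both WT libraries and no mutant, and 0 in all 4 mutants and no WT library. Across the 424.791 kb from Tcstv1 to Tcstv3 there were 26 regions, 17 of them in all 6 libraries, 0 in both WT libraries and no mutant, and 0 in all 4 mutants and no WT library. The first WT library had the most peaks genome-wide, 78539 against 63591 to 69814 in the other 5, and 2 of the 11 Zscan4 regions were found in that library only. The peak lists hold no read numbers, so presence is given as a description with no test. The share of regions over the whole genome in both WT libraries and no mutant is not given here. The region before Zscan4-ps2 can therefore not be read as a loss particular to this cluster.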

How the data were processed

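Gene expression was measured by mRNA-seq and open chromatin by ATAC-seq in 2 libraries each of WT, Mut18 and Mut43, which gives 6 libraries per assay, grouped by the cell line in their labels. The authors deposited raw read counts per gene, made from paired-end reads aligned to mm10 joined to the fly genome dm6, and ATAC-seq peak lists called for each library separately. The deposited peak lists hold, in the narrowPeak format and without a header, a fold enrichment over background (a ratio), a -log10 p and a -log10 q value, and an integer score. The submitters' processing notes name Bowtie2 2.3.4.2, SAMtools, STAR, DESeq2, deepTools 3.3.0 and MACS2. ChIP-seq libraries of the same lines were not analysed here. How reads that match several places were counted is not given in the sources used here.

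Counts were tested with edgeR 4.0.16 in R 4.3.3 (quasi-likelihood F-test, TMM, genes kept by a minimum count of 10 and a minimum total of 15, Benjamini-Hochberg adjustment over 14061 genes). WT was compared with the 4 mutant libraries in a fit of 2 groups, and the clones were compared in a fit of 3 groups. Both fits treated the libraries of a line as separate samples, so the p-values rest on libraries and not on independent clones. Genes were called at an adjusted p under 0.05 and a change over 2-fold, and "rose" and "fell" are used of genes with an adjusted p under 0.05. Normalized counts are scaled to the mean TMM-adjusted library size. Totals of 14992756 to 15143998 counts per library make counting error large for genes with a few counts, such as Tcstv1. The procedure was tested on simulated data.

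Named genes were all rows with a symbol beginning with Zscan4 or Tcstv. From the 2-cell, activator, repressor and telomere lists they were up to 8 called genes per direction, and where fewer than 3 were called, the genes of highest mean count up to 3. All tested genes within 500 kb of a member were named, as were the 5 genes nearest in profile to each family. The members and lists were chosen with earlier results of these data known. Peaks were matched to GENCODE starts on GRCm38, which is mm10, within 1000 bp. Sequences came from the GRCm38 genome and from RefSeq promoter tables, and were aligned with Biopython 1.88. The study calls the replicates biological, while the sample titles only number them. If they are not separate cultures, p-values measure only the spread between these samples, which may be technical. Alternatives were RLE scaling, DESeq2 1.42.0, no filter, a replicate block, each library left out, and other peak thresholds and windows.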

Additional observations from a re-analysis of the deposited data

Results flagged for a closer look

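In 4 of the 57 named genes, 1 of the 4 mutant libraries stood apart from the other 3, by a gap to its nearest neighbour, as a share of the range of the group, above Dixon's critical value. Chance alone flags about 1 in 20 groups. The ratio of gap to range was 0.866 for Gm2016 and 0.934 for Gm8300, and in both the second Mut43 library was the low one. It was 0.856 for Calcoco2, where the second Mut43 library was the high one, and 0.928 for Atrx, where the first Mut18 library was the low one. None of the Zscan4 or Tcstv genes stood out in this way. Tbx3 differed between the clones in the fit of the 3 lines. Its log2 level in Mut18 minus that in Mut43 was −0.383 ± 0.07 (SE, adjusted p = 0.00694 by edgeR), and it was above both WT libraries in all 4 mutant libraries. The difference between the clones did not pass when any 1 of the 4 mutant libraries was left out (adjusted p = 0.179 to 0.481 by edgeR), with values from −0.42 to −0.35.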

How the results depend on the processing

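The 5 Zscan4 genes were lower by more than 2-fold in every alternative run, with log2 fold changes between −2.98 and −2.40. By adjusted p alone, 3308 genes were higher and 3441 lower, against 461 and 794 with the 2-fold limit. Tcstv3 lost its call between mutants and WT in DESeq2 (−0.95, adjusted p = 0.102) and without WT replicate 2, either Mut18 library or Mut43 replicate 2 (adjusted p = 0.0643 to 0.613 by edgeR). Among the 2-cell genes, the number lower by more than 2-fold ran from 12 of 20 (DESeq2) to 17 of 33 (no filter). It was 14 of 20 in the main run. With no filter, 6.33% of all genes were lower by this rule. Between the clones, 1 to 2 genes were lower in Mut18 by more than 2-fold and 0 higher when a library was left out, with 1198 genes at an unadjusted p under 0.05. Without Mut43 replicate 2 the difference between the clones turned to −0.066 for Zscan4c and −0.041 for Zscan4f, and over all libraries left out it reached 0.47 and 0.41. Atrx (adjusted p = 0.0839) also lost its call without WT replicate 2, and Hmgcs1 passed without WT replicate 1 (0.17, adjusted p = 0.0189). For Tcstv3, the call in Mut18 was lost in DESeq2 (adjusted p = 0.166) and without WT replicate 2 or any mutant library, and Mut43 passed without WT replicate 1 (−1.17, adjusted p = 0.0182). Usp17lb also lost its call without Mut18 replicate 1 or either Mut43 library (adjusted p = 0.0504 to 0.071), and Trim43a passed without Mut18 replicate 2 (adjusted p = 0.0458). The cause of these changes was not tested. With the replicate number as a block, 465 genes were higher and 791 lower. The numbers did not pair the samples (correlations of replicate differences of −0.0121, 0.0239 and 0.000949), and no call for a member changed. With a window of 5000 bp, 1 member (Tcstv3) had a peak in each ATAC-seq library. Depth limits Tcstv1, Tcstv3, Dux and Chit1, and the peak lists give no depth.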
